A study of Sus scrofa with 32 samples.

Results

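The proteasome genes described here are 43 genes of the 26S proteasome, its activators, its inhibitor and its assembly chaperones, measured in coronary artery, coronary fat and aorta of obese and lean pigs. They are all genes whose symbol in the array annotation begins with PSMA, PSMB, PSMC, PSMD, PSME, PSMF or PSMG followed by a number, out of 8390 symbols on the arrays. A gene with several probe sets (10 of the 43) was represented by its brightest probe set, judged by the mean of all 32 arrays, so 43 of 57 proteasome probe sets were used. All 43 lay above the filter that left 10029 of 14327 probe sets for testing. PSMB9 lay just inside it, with a mean of 7.72 on the log2 scale against a lowest mean of 7.69 among the tested probe sets. In a second annotation of the array, 37 of the 43 probe sets carried the same symbol, 5 carried none (PSMB9, PSMC4, PSME3, PSME4 and PSMG4) and 1 carried another (PSMD7, given there as HMGB1).

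The animals were 11 Ossabaw miniature pigs, 22 weeks old, of a breed used to model juvenile obesity. The obese pigs (5) had eaten for 16 weeks a diet rich in fat, cholesterol and high fructose corn syrup, and the lean pigs (6) a commercial low fat diet for the same time. Arrays were run on the perivascular fat next to the left anterior descending coronary artery (PVAT, 5 obese and 6 lean), on that artery (LAD, 5 obese and 6 lean) and on the descending thoracic aorta (TA, 5 obese and 5 lean, pig 63 having none). Each pig is 1 replicate per tissue. The samples are whole tissue: the arteries had been cleaned of fat and surplus adventitia, and RNA was prepared with 1 kit from arteries and with another from fat.

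The proteasome is the protease that degrades ubiquitin-tagged proteins. Its 20S core is a barrel of alpha and beta subunits in which PSMB5, PSMB6 and PSMB7 carry the catalytic sites. The 19S cap, made of PSMC and most PSMD subunits, recognises, unfolds and feeds in the substrate. Interferon induces 3 alternative catalytic subunits, PSMB8 in place of PSMB5, PSMB9 in place of PSMB6 and PSMB10 in place of PSMB7. These form the immunoproteasome, which is abundant in immune cells and makes peptides for MHC class I presentation. Interferon also induces PSME1 and PSME2, the subunits of the activator PA28. In the pig genome (RefSeq, Sscrofa11.1) PSMB8 and PSMB9 lie on chromosome 7 beside the peptide transporter genes, in the order TAP2, PSMB8, TAP1, PSMB9, within the swine MHC. PSME2 and PSME1 are also on chromosome 7, in the order IRF9, PSME2, EMC9, PSME1.

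The tissues were as labelled by their markers, with mixtures. The mean log2 level of 4 adipocyte markers was 12.24 ± 0.48 in obese and 12.42 ± 0.27 in lean PVAT (SD, n = 5 and 6), against no more than 11.20 on any LAD array and 10.45 on any TA array. That of 6 smooth muscle markers was 12.18 or more on every artery array and 12.13 or less on every PVAT array. The mean of 11 cardiomyocyte markers ran from 6.19 to 13.43 on single LAD and PVAT arrays and was 7.50 or less on every TA array. Array medians ran from 8.32 to 8.56. The TA array of obese pig 57 stood apart, with 817 tested probe sets over 2 log2 units from the mean of the other TA arrays.

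PSMB8 and PSMB9 had the largest obese minus lean differences of the 43 genes in all 3 tissues, and their constitutive counterparts PSMB5 and PSMB6 stayed within 0.13 log2 units of 0. In LAD the PSMB9 level was 1.59 times and the PSMB8 level 1.56 times as high in obese as in lean pigs, in TA 1.71 and 1.82 times, and in PVAT 1.26 and 1.29 times. The other 41 genes lay between −0.23 and 0.14 log2 units in LAD, −0.20 and 0.15 in PVAT, and −0.15 and 0.22 in TA. None of the 43 genes passed an adjusted p under 0.05 in limma with each tissue fitted alone. In that fit 0.0399% of all tested probe sets passed as higher in obese LAD, and 0% as lower in LAD or in either direction in PVAT and TA. At an unadjusted p under 0.05 there were 4 of the 43 genes in LAD (PSMB8, PSMB9, PSMG1 and PSMG3), 2 in PVAT (PSMB9 and PSMC1) and 2 in TA (PSMB8 and PSMB9). Over all tested probe sets 17.2% were at such a p in LAD, 2.2% in PVAT and 7.18% in TA, so in both arteries the 43 genes as a body held fewer than that share.

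PSMB9, the inducible subunit that takes the place of PSMB6, separated the diets completely in both arteries. In LAD it was at 7.56, 7.81, 8.0, 8.13 and 8.47 on the obese arrays and at 7.14, 7.25, 7.28, 7.35, 7.37 and 7.54 on the lean arrays. The lowest obese array (pig 81) stood just above the highest lean array (pig 63). The difference was 0.67 log2 units (SE 0.14, adjusted p = 0.102, limma). With all 32 arrays in 1 limma fit and the pig as a block it was the same difference with an adjusted p of 0.0123, so the call depends on how the spread is estimated. Leaving out pig 81 gave 0.78 with a limma adjusted p of 0.0221. How many of all tested probe sets passed in these other fits is not given here. Of all tested probe sets, 1.31% had every obese LAD array above every lean one.

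In TA the PSMB9 level was 7.34, 7.37, 7.51, 7.59 and 7.61 in obese pigs and 6.18, 6.70, 6.77, 6.94 and 6.95 in lean pigs. The groups did not overlap, as was the case with obese higher for 1.4% of tested probe sets, and lean pig 56 was the lowest array of the series for this gene. The difference was 0.77 (SE 0.15, limma adjusted p = 0.258 with TA alone), and 0.77 with a limma adjusted p of 0.00991 with the pig as a block. How many of all tested probe sets passed with the block is not given here. The mean of lean TA, 6.71, was close to 6.64, the log2 of an intensity of 100, so this level is low. Some tested probe sets lay lower still in TA, such as the cardiomyocyte marker TNNT2, with a mean of 3.65 over both diets.

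In PVAT the PSMB9 level was 8.35, 8.40, 8.54, 8.77 and 8.79 in obese pigs and 7.87, 8.24, 8.28, 8.30, 8.35 and 8.36 in lean pigs. The ranges touched: obese pig 51 was a little below lean pig 48, and the other 4 obese arrays were above every lean array. The difference was 0.34 (SE 0.12, adjusted p = 0.999, limma). In PVAT 0.16% of tested probe sets had every obese array above every lean one and 0.0499% every obese array below, and none of the 43 genes was among them.

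PSMB8, the inducible subunit that takes the place of PSMB5, varied more between pigs. In TA it was at 8.0, 8.30, 8.45, 8.49 and 8.61 on the obese arrays and at 7.18, 7.33, 7.59, 7.66 and 7.77 on the lean arrays, again without overlap. The difference was 0.86 (SE 0.15, limma adjusted p = 0.215 with TA alone), and with the pig as a block the limma adjusted p was 0.0674. In LAD the obese arrays were at 8.01, 8.72, 8.73, 9.34 and 9.65 and the lean arrays at 7.88, 8.05, 8.16, 8.45, 8.47 and 8.49. Obese pig 81 lay within the lean range and the other 4 obese pigs above it. The difference was 0.64 (SE 0.25, limma adjusted p = 0.244), and its within-group SD of 0.47 was the widest of the 43 genes in LAD, where the median was 0.106.

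In PVAT the PSMB8 level was 8.77, 9.06, 9.56, 9.81 and 9.93 in obese pigs and 8.58, 9.05, 9.07, 9.14, 9.18 and 9.31 in lean pigs. Pigs 51, 55 and 57 were above every lean pig, and pigs 81 and 85 were within the lean range. The difference was 0.37 (SE 0.21, limma adjusted p = 0.999), and 0.25 without pig 55. Pig 81 had the lowest obese PSMB8 level and pig 86 the lowest lean level in each of the 3 tissues.

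**Figure D1:**
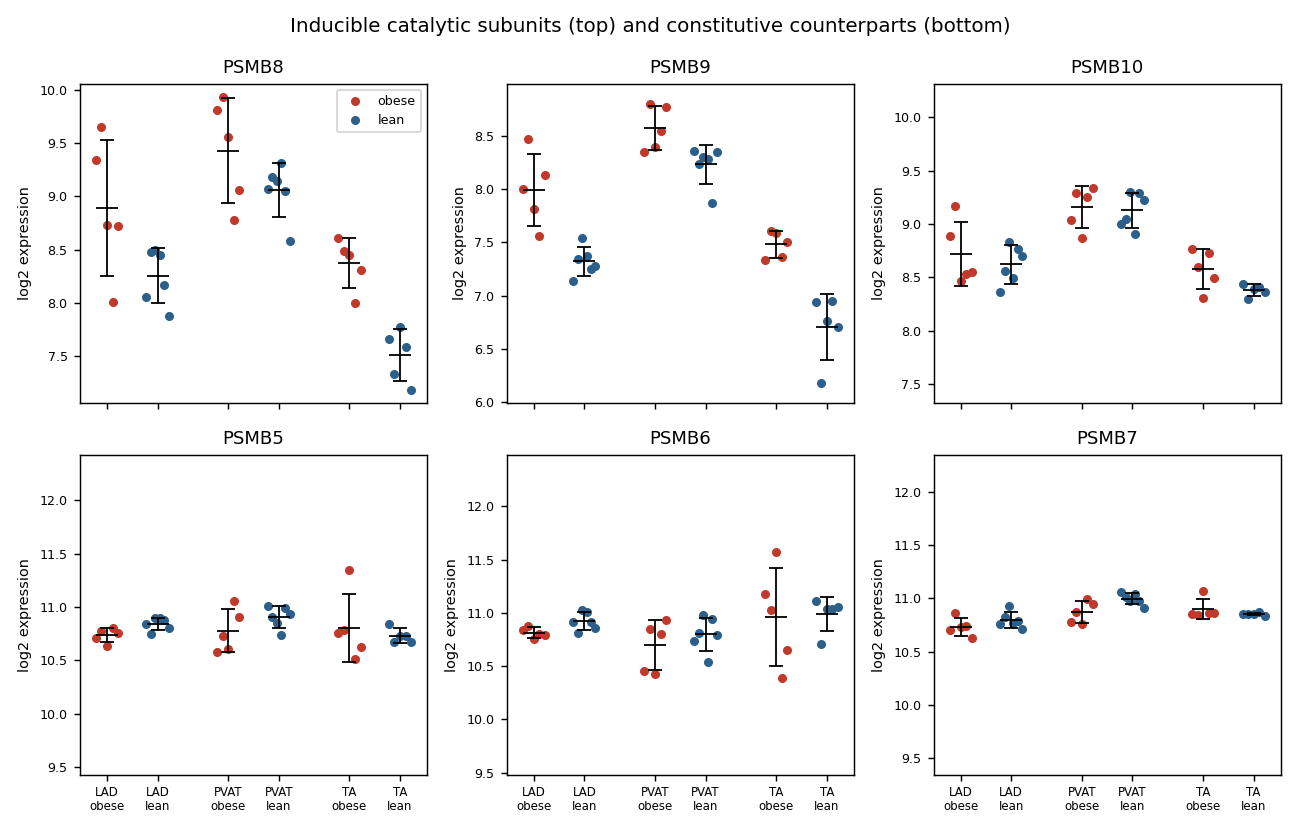
Log2 expression of the inducible catalytic subunits PSMB8, PSMB9 and PSMB10 (top) and of their constitutive counterparts PSMB5, PSMB6 and PSMB7 (bottom) on every array, by tissue and diet, with each panel spanning 3 log2 units. Points are pigs and black bars are mean and SD. The obese and lean points of PSMB8 do not overlap in TA, nor those of PSMB9 in LAD and TA. In the bottom row the ranges of the diets overlap, at least in part, in every tissue.

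The mean over a pig's 3 tissues gave the same order for the 10 pigs with all of them. PSMB9 was 0.61 higher in obese than in lean pigs (SE 0.09, 5 against 5 pigs, limma adjusted p = 0.0806), a 1.53-fold difference, with every obese pig above every lean pig. Of all tested probe sets, 1.44% showed that separation and 0% passed the test in either direction. PSMB8 was 0.65 higher (SE 0.20, limma adjusted p = 0.200). With all arrays in 1 limma fit and the pig as a block, the adjusted p values of this mean difference were 0.000190 for PSMB9 and 0.0115 for PSMB8. That block uses 1 correlation for all probe sets, 0.0763, and so counts the 3 arrays of a pig as nearly independent. The limma adjusted p values with the pig as the replicate are the 0.0806 and 0.200 above. How many of all tested probe sets passed for this mean difference with the block is not given here. Across all tested probe sets, 1.05% had a larger mean obese minus lean difference than PSMB8, and 1.21% a larger one than PSMB9.

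PSMB10, the inducible subunit that takes the place of PSMB7, did not show a difference of that size. It averaged 8.72 ± 0.30 in obese and 8.62 ± 0.18 in lean LAD (SD, n = 5 and 6), 9.16 ± 0.20 in obese and 9.13 ± 0.17 in lean PVAT, and 8.58 ± 0.19 in obese and 8.38 ± 0.05 in lean TA (n = 5 each). The differences were 0.10, 0.03 and 0.20, with 95% intervals from −0.20 to 0.40 in LAD, −0.21 to 0.27 in PVAT and −0.03 to 0.43 in TA. PSMB10 lies on chromosome 6, away from the MHC.

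The constitutive catalytic subunits were slightly lower in obese LAD and PVAT and mixed in TA. In LAD the differences were −0.11 for PSMB5, −0.11 for PSMB6 and −0.06 for PSMB7, with 95% intervals from −0.23 to 0.01, −0.23 to 0.02 and −0.19 to 0.07. In PVAT they were −0.13, −0.10 and −0.12 in the same order, and in TA 0.07, −0.02 and 0.04. None passed the test.

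The gap between each inducible subunit and the constitutive subunit it replaces was set to 0 at the lean mean of a tissue. On that scale the PSMB9 to PSMB6 gap of the obese pigs averaged 0.78 ± 0.31 in LAD, 0.44 ± 0.09 in PVAT and 0.80 ± 0.42 in TA (SD, n = 5), and all 5 obese pigs lay above every lean pig in LAD and TA and 4 of 5 in PVAT. The PSMB8 to PSMB5 gap averaged 0.74 ± 0.65 in LAD, 0.50 ± 0.68 in PVAT and 0.79 ± 0.29 in TA, with 4, 3 and 5 of the 5 obese pigs above every lean pig. The PSMB10 to PSMB7 gap averaged 0.16 ± 0.25, 0.15 ± 0.12 and 0.16 ± 0.27, with 2, 2 and 4 obese pigs above every lean pig. These gaps are given as description only.

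The structural 20S genes and the PSMC and PSMD genes had small diet differences. The 14 constitutive 20S genes had a median of 0.01 in LAD, −0.04 in PVAT and 0.06 in TA. The 18 PSMC and PSMD genes had −0.07, −0.06 and 0.08, beside medians over all tested probe sets of −0.06, 0.00 and −0.03. In LAD all 5 PSMC genes (ATPases) and 11 of 13 PSMD genes were on the negative side. They reached −0.20 for the ubiquitin receptor PSMD4, with 0.14 for the deubiquitinase PSMD14 at the other end. PSMC1, an ATPase, was at −0.20 in PVAT (SE 0.09, limma adjusted p = 0.999). In TA PSMD14 was at 0.22 (SE 0.30), and without the TA array of pig 57 at −0.05.

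**Figure D2:**
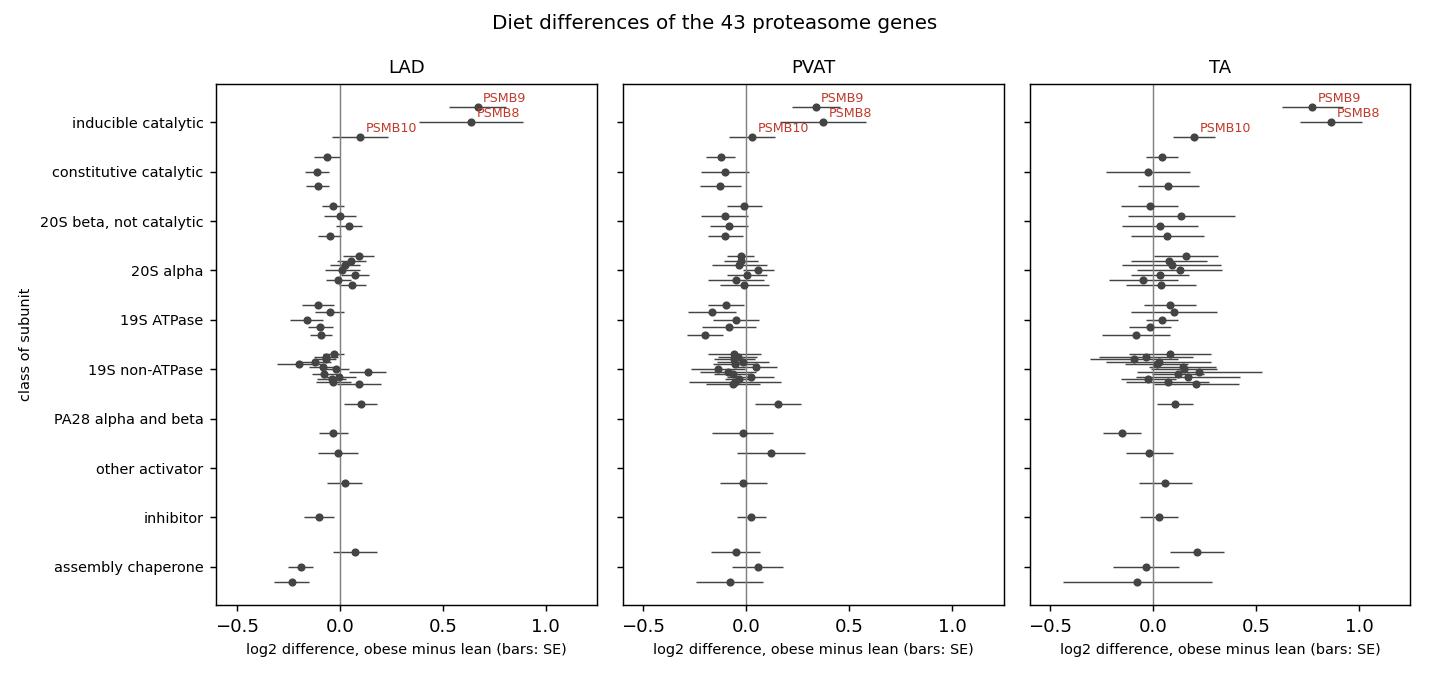
Log2 difference, obese minus lean, of each of the 43 proteasome genes (points, with SE bars) by class of subunit in LAD, PVAT and TA. PSMB8 and PSMB9 stand to the right of all other genes in each tissue, at 0.64 and 0.67 in LAD, 0.37 and 0.34 in PVAT, and 0.86 and 0.77 in TA, and PSMB10 stands with the rest.

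The PA28 genes and the chaperones had smaller differences. PSME2 was 0.10 higher in obese LAD, 0.15 in PVAT and 0.10 in TA, and PSME1 was −0.03, −0.02 and −0.15, none passing the test. PSMG1, which helps assemble the alpha ring, was 0.23 lower in obese LAD (SE 0.08, limma adjusted p = 0.219). It was at 8.59 to 8.78 on the obese arrays (median 8.68) and 8.67 to 9.12 on the lean arrays, with only lean pig 86 inside the obese range. PSMG3, another assembly chaperone, was at 8.50, 8.51, 8.55, 8.56 and 8.60 in obese LAD and at 8.55, 8.71, 8.72, 8.75, 8.81 and 8.85 in lean LAD, a difference of −0.19 (SE 0.06, limma adjusted p = 0.204). Only lean pig 48 was within the obese range.

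The obese minus lean difference of PSMB8 was 0.23 smaller in LAD than in TA, 0.27 smaller in PVAT than in LAD and 0.49 smaller in PVAT than in TA. For PSMB9 it was 0.10, 0.33 and 0.44 smaller. None of these passed limma's test of the difference itself, nor did any other of the 43 genes or any tested probe set (0% in each direction). At an unadjusted p under 0.05 there was 1 of the 43 genes, PSMB9 in PVAT minus TA (limma adjusted p = 0.854), fewer than the 4.92% of all tested probe sets. The 95% interval for PSMB9 was −0.84 to −0.03 for PVAT minus TA and −0.73 to 0.06 for PVAT minus LAD. Single pigs weighed on these values: the PSMB8 difference in LAD minus that in TA was −0.10 without pig 81 and −0.39 without pig 55.

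The pigs were killed on 3 days, each with both diets. PSMB9 was higher in obese pigs on each day in LAD (0.69, 0.86 and 0.54) and in TA (1.42, 0.40 and 0.63), and in PVAT on all but 1 day (0.33, −0.01 and 0.49, the day of the −0.01 holding 1 pig a group). PSMB8 was higher in obese pigs on each day in LAD (0.71, 1.29 and 0.20) and TA (1.13, 0.95 and 0.64). In PVAT it was 0.58, 0.74 and −0.06, the day of the −0.06 holding obese pigs 81 and 85 and 3 lean pigs.

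RNA quality differed between pigs. The 28S/18S ratio of the RNA averaged 1.09 ± 0.40 in obese and 1.31 ± 0.12 in lean LAD, 0.88 ± 0.21 in obese and 1.03 ± 0.14 in lean PVAT, and 1.18 ± 0.64 in obese and 1.38 ± 0.15 in lean TA. With the ratio as a covariate, PSMB8 (0.91, limma adjusted p = 0.0178) and PSMB9 (0.81, limma adjusted p = 0.0267) passed in TA, as did PSMD14. In LAD PSMB9 was then at 0.59 (limma adjusted p = 0.226) and PSMB8 at 0.46 (0.440). The share of all tested probe sets that passed in TA with this covariate is not given here.

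The mean of the constitutive genes in TA spread more among the obese arrays than it differed between the diets. Averaged over the 38 genes other than the inducible catalytic subunits and PA28, the log2 level was 10.16 ± 0.05 in obese and 10.20 ± 0.04 in lean LAD, 10.28 ± 0.14 in obese and 10.33 ± 0.07 in lean PVAT, and 10.20 ± 0.34 in obese and 10.14 ± 0.05 in lean TA. Pig 57 had the highest TA level of 32 of the 38 genes and a mean of 10.70, with a 28S/18S ratio of 2.14. Pig 81 had the lowest TA level of 26 of them and a mean of 9.82, with a ratio of 0.61, and pig 85 a mean of 9.98, with a ratio of 0.57. PSMG1 showed the widest within-group SD in TA, 0.63, with obese arrays at 8.19, 8.47, 9.0, 9.11 and 10.46 against 8.94 to 9.36 on the lean arrays. The part of RNA quality in these values was not tested. PSMB8 and PSMB9 of pig 57 in TA (8.45 and 7.59) lay within the range of the other obese pigs, and without that array the obese minus lean difference was 0.84 for PSMB8 and 0.75 for PSMB9.

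**Figure D3:**
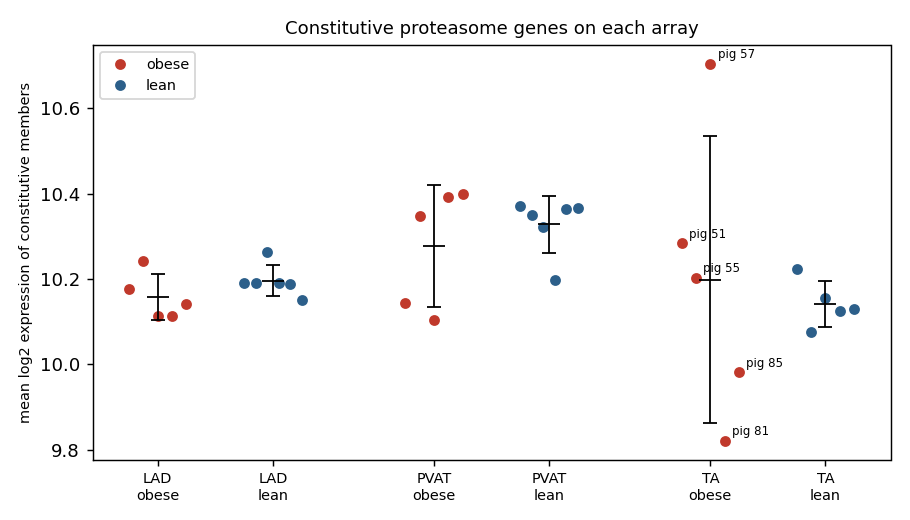
Mean log2 expression of the 38 constitutive proteasome genes on each array, by tissue and diet, with black bars for mean and SD. The obese TA arrays spread from 9.82 (pig 81) to 10.70 (pig 57), wider than in any other group.

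Genes of antigen presentation lay on the same side as PSMB8 and PSMB9. Of 17 listed genes, 10 were tested. In obese against lean pigs all 10 had a positive difference in LAD (median 0.33), 9 in PVAT (median 0.13) and 10 in TA (median 0.24), and none passed the test in limma, with 6, 2 and 3 at an unadjusted p under 0.05, where 17.2%, 2.2% and 7.18% of all tested probe sets were. TAP1, the transporter subunit encoded between PSMB8 and PSMB9, was 0.63 higher in LAD (SE 0.14, limma adjusted p = 0.104), 0.38 in PVAT and 0.79 in TA, without overlap of the diets in LAD and TA. The class I heavy chain HLA-B was 0.56 higher in LAD (SE 0.11, limma adjusted p = 0.102), 0.24 in PVAT and 0.54 in TA, and the light chain B2M 0.29, 0.12 and 0.23 higher.

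Of 25 listed interferon signalling genes, 15 were tested, and 15 had a positive obese minus lean difference in LAD (median 0.48), 15 in PVAT (median 0.40) and 13 in TA (median 0.38). None passed the test, with 11, 10 and 6 at an unadjusted p under 0.05 in limma, beside the same 17.2%, 2.2% and 7.18% of all tested probe sets. RSAD2, an antiviral interferon target, had the largest difference in each tissue: 1.83 in LAD (SE 0.41, limma adjusted p = 0.106), 1.84 in PVAT and 2.06 in TA. ISG15, a ubiquitin-like interferon target, was 1.34, 1.21 and 1.37 higher. IRF1, the factor that drives PSMB9 and TAP1 after interferon, was 0.52, 0.40 and 0.42 higher.

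Genes that regulate or feed the proteasome had medians near 0. The 16 tested proteasome regulators had medians of −0.05 in LAD, 0.02 in PVAT and 0.09 in TA, 11 ubiquitin and ubiquitin-activating genes −0.05, 0.00 and −0.01, and 15 autophagy genes −0.05, 0.03 and −0.02. None of them passed in any diet comparison, with at most 3 of a list at an unadjusted p under 0.05 in limma. That was 3 of 15 autophagy genes in LAD, close to the 17.2% of all tested probe sets there.

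Markers of leukocytes and endothelium lay mostly on the obese side too. The obese minus lean difference was positive for all 14 tested leukocyte markers in LAD (median 1.60), where C1QA passed the test. It was positive for 14 of 14 in PVAT (median 0.15) and for 11 of 14 in TA (median 0.38). At an unadjusted p under 0.05 in limma there were 14 in LAD, 0 in PVAT and 2 in TA, beside 17.2%, 2.2% and 7.18% of all tested probe sets. Their mean log2 level ran from 9.39 to 10.93 on the obese and from 8.47 to 8.95 on the lean LAD arrays, from 9.33 to 10.23 and 9.28 to 10.09 in obese and lean PVAT, and from 8.52 to 10.08 and 8.71 to 9.03 in obese and lean TA. All 8 tested endothelial markers were on the higher side in obese TA (median 0.87), where their mean ran from 7.97 to 9.14 in obese and from 7.30 to 7.85 in lean pigs. In obese LAD (median 0.29) and PVAT (median 0.17) 7 of 8 were. At an unadjusted p under 0.05 in limma there were 6 of the 8 in TA, 2 in LAD and 1 in PVAT. All 6 tested smooth muscle markers were on the lower side in obese pigs in each tissue, with a mean level of 13.14 in obese and 13.32 in lean LAD, 11.48 in obese and 11.75 in lean PVAT, and 13.12 in obese and 13.41 in lean TA. The obese minus lean difference of PSMB9 was 0.67 in LAD, 0.34 in PVAT and 0.77 in TA. Beside it the leukocyte medians were 1.60, 0.15 and 0.38 and the endothelial medians 0.29, 0.17 and 0.87. In whole tissue, more cells of a type and more RNA of a gene per cell cannot be told apart, and the part of these cells in the PSMB8 and PSMB9 values was not tested.

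Between tissues, PSMB8 and PSMB9 followed the order PVAT, LAD, TA. Averaged over both diets, PSMB9 was at 8.40 in PVAT, 7.66 in LAD and 7.10 in TA, and PSMB8 at 9.24, 8.57 and 7.94. Each step passed the test: PVAT over LAD by 0.74 for PSMB9 and 0.67 for PSMB8 (SE 0.10 and 0.16, limma adjusted p = 2.5e-07 and 0.000646), and LAD over TA by 0.56 and 0.63 (SE 0.10 and 0.16, limma adjusted p = 6.7e-05 and 0.00357). PVAT over TA came to 1.31 and 1.30, 2.47-fold for each. The 3 comparisons share arrays, so they are not independent.

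Compared with LAD, PVAT had 19 of the 43 genes higher and 1 lower, 44.2% and 2.33%, where 24.2% and 32.4% of all tested probe sets passed as higher and lower. Their median difference was 0.16, beside −0.04 over all tested probe sets. The 20S core held most of the calls. Of the alpha genes 6 of 7 passed, from 0.25 for PSMA7 to 0.55 for PSMA3. For PSMA6 a second, dimmer probe set passed in the opposite direction (−1.0, against 0.37 for the one used), so its direction is uncertain. Also passing were PSMB2, PSMB4 and PSMB7 of the beta ring and all 3 inducible subunits (PSMB10 by 0.47, SE 0.08, limma adjusted p = 2.4e-05). PSMA3, an alpha subunit of the core, was at 11.84 to 12.28 on the 11 PVAT arrays (mean 12.02) and 11.35 to 11.70 on the 11 LAD arrays (mean 11.47), without overlap, which held with PVAT higher for 3.81% of tested probe sets. Both PA28 genes were higher in PVAT, PSME1 by 0.32 and PSME2 by 0.33.

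Of the PSMC and PSMD genes 5 of 18 passed as higher in PVAT than in LAD (PSMC2, PSMC5, PSMD5, PSMD6 and PSMD13, from 0.16 to 0.32). That is a share of 27.8%, near the 24.2% of all tested probe sets. Of 18 alternatives PSMD5 was lost in 9, and PSMC5 and PSMB4 in 7 each. PSME3, the subunit of the nuclear activator PA28 gamma, was the 1 gene lower in PVAT, by 0.32 (SE 0.08, limma adjusted p = 0.000773). It was at 8.07 to 8.68 in PVAT and 8.60 to 8.97 in LAD, so the ranges met at their ends. PSMB5 and PSMB6 did not pass (0.05 and −0.12).

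Compared with TA, PVAT had 18 of the 43 genes higher and 4 lower, 41.9% and 9.30%, beside 26.9% and 32.9% of all tested probe sets. Without the TA array of pig 57 it was 28 higher and 2 lower. The shares of all tested probe sets in that fit are not given here, so the rise in count may not be particular to these genes. PSMA3 was 0.77 higher (SE 0.07, limma adjusted p = 5.6e-10), PSMB10 0.66 and PSME2 0.34. PSMB9, PSMB10 and PSMA3 were higher on every PVAT array than on every TA array, as were 4.96% of tested probe sets. The 4 lower genes were PSMG1 (−0.43, SE 0.17, limma adjusted p = 0.0283), the ATPase PSMC4 (−0.23), the catalytic PSMB6 (−0.23) and PSME3 (−0.22). The calls of PSMB6 and PSMC4 were each lost in 10 of 19 alternatives, with PSMB6 between −0.36 and −0.12. PSMB5 and PSMB7 were at 0.08 and 0.06 without passing. The second probe set of PSMA6 was again opposite (−1.24, against 0.36), and the 3 probe sets of PSME3 ran from −0.30 to 0.14.

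With the cardiomyocyte marker mean as a covariate, PVAT over TA kept 7 genes higher and 2 lower. The shares of all tested probe sets under this setting are not given here, so the fall in count may not be particular to these genes. PSMB8, PSMB9 and PSMB10 passed under this setting too, PSMB8 and PSMB9 at no less than 1.17 and 1.20 under all alternatives. Adipocytes, RNA kit and heart muscle all differ between fat and aorta. Fat and LAD also differ in RNA kit and in adipocytes (4 of 4 tested markers higher in PVAT, median 1.99). Of 11 cardiomyocyte markers 9 lay higher in PVAT than in LAD and 2 lower (median 1.58). As higher 3 of them passed, where 24.2% of all tested probe sets did. In neither comparison can the parts of these differences be told apart.

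**Figure D4:**
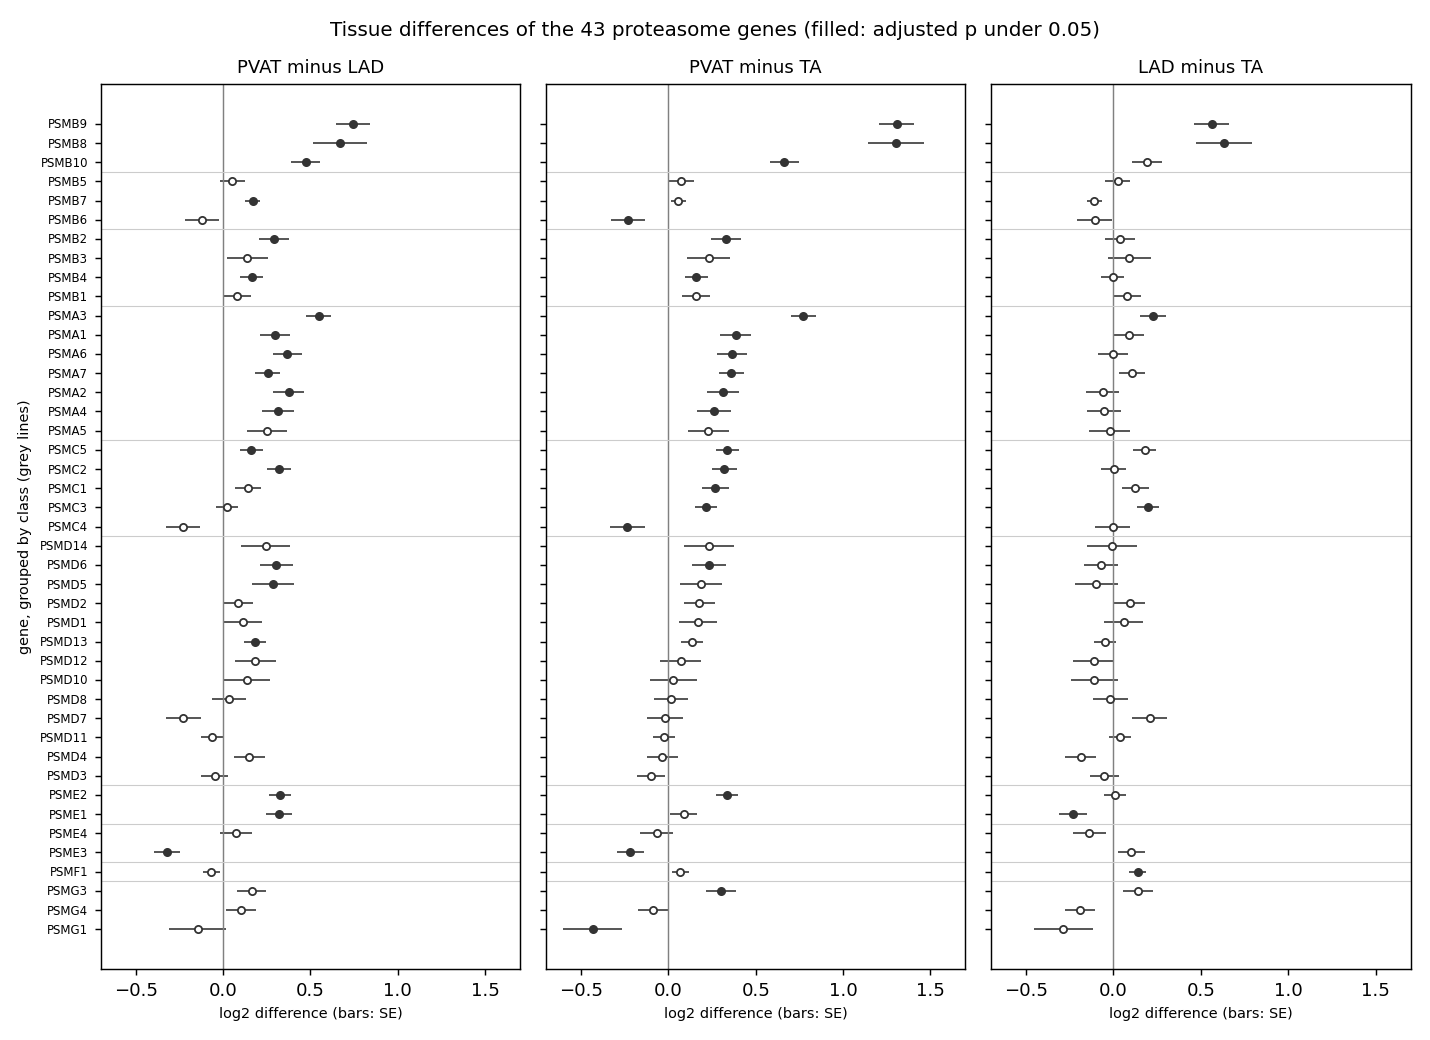
Log2 difference between tissues of each of the 43 proteasome genes (points, with SE bars; filled where the limma adjusted p was under 0.05), grouped by class. PSMB8 and PSMB9 have the largest differences in all 3 panels, up to 1.30 and 1.31 for PVAT minus TA, and the alpha subunits (PSMA) lie to the right of 0 in both PVAT panels.

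LAD and TA, both arteries extracted with the same kit, differed in 6 of the 43 genes. In LAD 5 were higher and 1 lower, 11.6% and 2.33%, beside 14.4% and 10.1% of all tested probe sets, and the median was 0.00. The higher ones were PSMB8 and PSMB9, then PSMA3 (0.23, SE 0.07, limma adjusted p = 0.0223), the ATPase PSMC3 (0.20, 0.0211) and the inhibitor PSMF1 (0.14, 0.0410). PSME1 was 0.23 lower in LAD (SE 0.08, limma adjusted p = 0.0296). PSMB10 was 0.19 higher without passing. Among alternatives PSMB9 passed in 18 of 18 and PSMB8 in 18 of 19, while PSMF1 was lost in 12 of 19 and PSMC3 and PSME1 in 5 each. PSMB8 was lost with the cardiomyocyte marker mean as a covariate (limma adjusted p = 0.0734). Of 11 cardiomyocyte markers 10 lay higher in LAD than in TA and 1 lower (median 4.25). As higher 8 of them passed, where 14.4% of all tested probe sets did. The part of heart muscle in these differences was not tested. Leaving out pig 73, 81 or 86 left 3 of the 43 genes past the test, PSMB8 and PSMB9 among them each time. The shares of all tested probe sets in those fits are not given here.

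Antigen presentation genes followed the same order of tissues in part. TAP1 was 0.45 higher in PVAT than in LAD and 0.51 higher in LAD than in TA (limma adjusted p = 0.00135 and 0.00132), HLA-B 0.41 and 0.54 higher, and CD74, the class II invariant chain, 0.32 and 0.51 higher. TAPBP, which loads class I molecules, fell by 0.66 in PVAT against LAD. Of the 10 tested genes, 4 were higher and 2 lower in PVAT than in LAD, and 5 higher in LAD than in TA. Of all tested probe sets 24.2% were higher and 32.4% lower in PVAT than in LAD, and 14.4% higher and 10.1% lower in LAD than in TA. Of the 15 interferon signalling genes, 8 were higher and 1 lower in PVAT than in LAD, led by OAS1 at 1.53, and 6 higher and 1 lower in LAD than in TA.

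Among proteasome regulators, POMP, the chaperone that matures the 20S core and favours the immunoproteasome, was 0.48 higher in PVAT than in LAD and 0.55 higher than in TA (limma adjusted p = 9.3e-05 and 2.1e-05). NFE2L1, the transcription factor that restores proteasome genes when the proteasome is inhibited, was 0.63 higher in LAD than in TA (SE 0.05, limma adjusted p = 3.5e-10) and 0.22 lower in PVAT than in LAD. USP14, a deubiquitinase of the 19S cap, was 0.38 higher in LAD than in TA and fell by 0.35 in PVAT against LAD. Endothelial markers were also higher in PVAT than in LAD (7 of 8, 1 lower, median 1.02) and in LAD than in TA (5 of 8, median 0.87), as were 6 of 14 leukocyte markers in PVAT over LAD. For LAD over TA 2 of 14 leukocyte markers passed, the share of all tested probe sets being 14.4%. Their part in the tissue differences was not tested.

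The median within-group SD of the 43 genes was below that of all tested probe sets, most clearly in LAD and least in TA. The 43 genes were not matched to the other probe sets for level. It was 0.106 in LAD, 0.183 in PVAT and 0.259 in TA for the 43 genes, beside 0.169, 0.217 and 0.277 over all tested probe sets. In LAD the widest were PSMB8 (0.47), PSMB9 (0.25) and PSMB10 (0.24), and the narrowest was PSMD6 (0.04). For 8 genes with several tested probe sets, all probe sets of the gene had the same sign of the obese minus lean difference in 6 (LAD), 5 (PVAT) and 5 (TA), and the same sign of each tissue difference in 6; PSMB8, PSMB9 and PSMB10 have 1 probe set each.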

How the data were processed

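The deposited values are log2 expression per probe set of an Affymetrix porcine array, made by the authors with the affy package per the submitters' processing notes; its version and the normalization method are not given in the sources used here. This table had been filtered before deposit, so weakly expressed genes are missing. For arrays, precision is limited by their number. Gene symbols are those the authors paired with probe sets. Probe sets in the lowest 30% by mean were left out. Obese and lean pigs were compared within tissues, and over the mean of 3 tissues, with limma 3.58.1 in R 4.3.3 (two-sided, Benjamini-Hochberg over 10029 probe sets, threshold 0.05). Tissues, and differences of the diet effect, came from 1 fit of 6 groups. Pig numbers pair the arrays because they mark the same animal. The deviations of 1 pig's arrays from their group means correlated with a median of 0.31 for LAD and TA, 0.26 for PVAT and LAD and 0.10 for PVAT and TA, and a pig block (duplicateCorrelation, correlation 0.0763) was an alternative. Scripts were tested on simulated data.

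Named genes were PSMB8, PSMB9, PSMB10, PSME1, PSME2, PSMB5, PSMB6 and PSMB7, up to 3 members at each end of a comparison, called members where 5 or fewer, and up to 4 genes of each other list. Some further members are named to complete a class and were chosen after their values were seen. Members, lists and rules were chosen with earlier results of these data known. Sequences were not used here.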

Additional observations from a re-analysis of the deposited data

Results flagged for a closer look

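In 54 groups (8 genes and the mean of the constitutive genes, in 6 groups of arrays), the highest or lowest array was far from the rest in 6. Chance gives about 1 in 20 for a single group. The 54 groups share arrays and pigs and are not independent, so the count cannot be weighed against that rate. PSMB8 in lean PVAT was 8.58 in pig 86, below 9.05 to 9.31 in the other 5 pigs. PSMB9 in lean PVAT was 7.87 in pig 80, below 8.24 to 8.36 in the others. PSMB6 in lean TA was 10.71 in pig 56, below 11.03 to 11.11. PSMB7 in obese TA was 11.06 in pig 57, above 10.84 to 10.87. The constitutive mean was 10.26 in lean LAD of pig 63, above 10.15 to 10.19, and 10.20 in lean PVAT of pig 73, below 10.32 to 10.37.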

How the results depend on the processing

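Counts of proteasome genes past the threshold (limma, adjusted p under 0.05) are given below for alternative fits. How many of all tested probe sets passed in those fits is not given here. A change in count may therefore not be particular to the proteasome genes. The counts moved as follows. For diet in LAD, 0 became 1 (PSMB9) with all 6 groups in 1 fit, 1 with the pig as a block, and 0 to 1 with single pigs left out (1 without pig 81). For diet in TA it became 3 with the 28S/18S covariate, 1 with 6 groups in 1 fit and 1 with the block. Over 3 tissues it became 2 with the block, which counts a pig's arrays as nearly independent. With single pigs left out it was 0 to 1. LAD against TA gave 6, and 3 to 8 with single pigs left out (3 without pig 73, 81 or 86), with PSMB8 and PSMB9 past the threshold each time; the cardiomyocyte covariate took PSMB8 out, adjusted p 0.0734. PVAT against TA gave 22, and 9 with the cardiomyocyte covariate. The block changed no other call count by over 1.5 times. PSMB8 and PSMB9 kept their sign in every diet comparison and alternative; PSMB9 was not tested when the lower 50% of probe sets was left out.

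The signs that reversed belonged to uncalled differences, and the cause was not tested. The largest was PSMD14 in TA, at 0.22, which passed at 0.45 with the 28S/18S covariate (limma adjusted p 0.0345). In LAD, obese minus lean PSME1 was 0.0045 after quantile normalization and 0.0030 after median centring. In PVAT the 28S/18S covariate gave 0.0045 for PSMB6 and 0.16 for PSME1. In TA the same covariate gave 0.12 for PSMB6, 0.023 for PSMC1 and 0.057 for PSMD6, and quantile normalization 0.024 for PSMB6. The cardiomyocyte covariate gave −0.095 for PSMB5, −0.010 for PSMB7 and −0.12 for PSMD14, and leaving out the TA array of pig 57, an alternative chosen after seeing the data, −0.063 for PSMB5 and −0.049 for PSMD14. LAD minus TA was −0.015 (median centring) and −0.0088 (cardiomyocyte covariate) for PSMB5, and −0.017 (quantile), −0.029 (median centring) and −0.088 (cardiomyocyte covariate) for PSME2. PVAT minus TA was −0.053 for PSME1 with that covariate. With single pigs left out, the lowest and highest obese minus lean values were in LAD −0.013 and 0.16 for PSMB10, −0.066 and 0.0055 for PSME1; in PVAT −0.017 and 0.099 for PSMB10, −0.10 and 0.079 for PSME1; in TA −0.063 and 0.15 for PSMB5, −0.18 and 0.12 for PSMB6, −0.18 and 0.028 for PSMC1, −0.049 and 0.42 for PSMD14, −0.29 and 0.025 for PSMD6. LAD minus TA gave −0.022 and 0.10 for PSMB5, −0.024 and 0.037 for PSME2. The diet difference of PSMB9 in LAD minus that in TA ran from −0.20 to 0.033.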
